A study of Mus musculus with 15 samples.

Results

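Of 15 RNA-seq libraries of sorted cortical microglia, 4 held far more RNA of immediate early genes than the other 11, and these 4 are described here. They are PS2APP 1, PS2APP 4, WT 9 and WT 13, numbered as in the sample titles. They were chosen by their high measured counts of Fos, Jun, Egr1, Dusp1 and other immediate early genes. The markers named for the set are Fos, Jun, Egr1, Dusp1, Btg2 and Klf2. Since the counts themselves chose the 4 libraries, every difference between them and the other 11 is given as a description, with no test. Tests are given only for genotype, for the difference of the genotype effect between the sets, and for variation among the 11.

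The cells were sorted for green fluorescent protein under Cx3cr1, a receptor gene that microglia use at high level, and all samples of both groups carry this reporter. PS2APP mice (9 samples) are a model of Alzheimer's disease with transgenes for human mutant presenilin 2 and amyloid precursor protein, and the comparison group is wild type (6 samples). Within the 4 libraries, PS2APP 1 and WT 9 came from animals of 15 months and PS2APP 4 and WT 13 from animals of 14 months, so the set holds 2 libraries of each genotype and 2 of each age. The other 11 hold 7 PS2APP and 4 wild type libraries, 4 of them at 14 months and 7 at 15 months. The labels give no treatment, sorting day, dissociation method or time between dissection and lysis, and whether each sample was a separate mouse is not said. The p-values therefore reflect how these samples vary, which may be technical in part.

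Immediate early genes are transcribed within minutes of a stimulus from factors that are already in the cell, without new protein synthesis, and most of their RNAs are short-lived. Their products include transcription factors of the AP-1, EGR and KLF families, which act on later genes, and feedback inhibitors such as dual-specificity phosphatases, which switch MAP kinases off. In microglia such genes are known to respond to injury and to tissue dissociation as well as to signals in the living brain. Which of these, if any, acted on the 4 libraries was not tested.

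The 10 microglia markers, among them P2ry12 and Tmem119, summed to between 30613 and 39562 CPM in the 4 libraries and to between 25417 and 42529 CPM in the other 11, so the sets overlap and both are rich in microglia RNA. CPM are counts scaled to a common library size, here with sizes adjusted by TMM. Total counts were 4838919 in PS2APP 1, 6526114 in PS2APP 4, 7930882 in WT 9 and 8455237 in WT 13, against 3664742 to 6169860 in the other 11. The mitochondrial share of reads lay between 0.906% and 1.73% in the 4 libraries and between 0.598% and 1.83% in the others. WT 13 was 1 of 3 libraries with little Xist RNA (46.8 CPM, against 16.6 in PS2APP 14, 20.7 in WT 12 and 3659 or more in the other 12), and the labels give no sex. In a principal component analysis of all genes tested, WT 11, which is not one of the 4, stood apart on the first component with 19.9% of the variance. On the second, with 13.8%, WT 9 was farthest out (80.7, with WT 2 next at 44.2), and the 4 libraries lay between 13.6 and 80.7 and the others between -37.6 and 44.2.

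RefSeq promoter windows (GRCm38.p6, 250 bases before to 50 after a transcript start) were found for 25 of the 29 immediate early genes that stood out in the 4 libraries by the rule given below. Egr1, Ier2, Rgs1 and Trib1 had no window, and promoter sequence outside the windows was not searched. The cAMP response element TGACGTCA, a binding sequence of CREB and ATF factors that reads the same on both strands, was in a window of 5 of these 25 genes (20%), against 3.51% of the 10255 tested genes that have a window. It was in 1.97% of all 28056 windows of this length. Counted by window it was in 13.2% of the windows of these genes. The CArG box, to which serum response factor binds, was in 2 of the 25 (8%), against 1.55% of the tested genes with a window. The other 4 motifs searched were the AP-1 site TGANTCA in 8% against 6.14%, the NF-kB site in 16% against 11.9%, the EGR site GCGNGGGCG in 24% against 11.8%, and TATAAA in 24% against 9.25%. Both strands were searched, no window shown holds both a cAMP response element and a CArG box, and a gene with several annotated starts had several windows in which a match could fall. The 250 bases before the start are printed 5′ to 3′ along the gene for the 5 genes with a cAMP response element, for Zfp36 with its CArG box and for Fos with its TATA box, with those motifs in capitals. These genes include an AP-1 factor (Fos), phosphatases (Dusp1 and Dusp8), a phosphatase subunit (Ppp1r15a), a kinase (Plk2), an antiproliferative factor (Btg2) and an RNA-decay factor (Zfp36).
Dusp1, chr17:26508473-26508722, minus strand: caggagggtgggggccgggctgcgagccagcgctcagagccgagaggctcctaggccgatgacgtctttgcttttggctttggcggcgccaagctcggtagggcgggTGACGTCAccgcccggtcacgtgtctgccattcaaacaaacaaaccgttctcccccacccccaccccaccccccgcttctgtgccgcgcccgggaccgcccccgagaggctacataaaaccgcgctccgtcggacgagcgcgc
Btg2, chr1:134079156-134079405, minus strand: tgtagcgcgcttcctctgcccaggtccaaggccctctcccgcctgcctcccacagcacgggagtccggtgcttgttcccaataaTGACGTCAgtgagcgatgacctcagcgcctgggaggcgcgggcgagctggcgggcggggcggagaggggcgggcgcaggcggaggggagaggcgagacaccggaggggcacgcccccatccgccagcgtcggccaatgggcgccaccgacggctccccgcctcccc
Ppp1r15a, chr7:45526269-45526518, minus strand: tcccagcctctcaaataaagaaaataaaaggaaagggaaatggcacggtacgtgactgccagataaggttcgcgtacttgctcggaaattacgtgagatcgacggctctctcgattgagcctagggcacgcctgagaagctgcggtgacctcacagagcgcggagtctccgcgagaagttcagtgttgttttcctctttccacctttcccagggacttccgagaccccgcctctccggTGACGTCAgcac
Plk2, chr13:110394794-110395043, plus strand: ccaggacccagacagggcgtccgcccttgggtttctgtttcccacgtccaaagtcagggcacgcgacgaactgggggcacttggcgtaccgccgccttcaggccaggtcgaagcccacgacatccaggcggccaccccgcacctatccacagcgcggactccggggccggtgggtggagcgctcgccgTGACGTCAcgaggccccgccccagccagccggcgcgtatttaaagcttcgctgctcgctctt
Dusp8, chr7:142095285-142095534, minus strand: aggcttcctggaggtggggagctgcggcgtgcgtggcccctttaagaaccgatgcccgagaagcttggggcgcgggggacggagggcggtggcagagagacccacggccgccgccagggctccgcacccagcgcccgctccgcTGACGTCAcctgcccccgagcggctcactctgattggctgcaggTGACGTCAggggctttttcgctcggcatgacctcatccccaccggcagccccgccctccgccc
Zfp36, chr7:28379229-28379478, minus strand: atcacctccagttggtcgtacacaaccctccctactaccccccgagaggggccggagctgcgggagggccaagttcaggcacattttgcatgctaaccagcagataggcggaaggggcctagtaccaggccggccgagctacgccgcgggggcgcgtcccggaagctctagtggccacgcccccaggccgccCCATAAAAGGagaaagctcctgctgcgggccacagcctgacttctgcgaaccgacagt
Fos, chr12:85473640-85473889, plus strand: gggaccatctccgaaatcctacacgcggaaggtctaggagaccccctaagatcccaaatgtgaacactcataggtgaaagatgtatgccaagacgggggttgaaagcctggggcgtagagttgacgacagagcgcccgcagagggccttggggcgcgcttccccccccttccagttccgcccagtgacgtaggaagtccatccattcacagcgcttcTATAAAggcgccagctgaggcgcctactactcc
The cAMP response element begins 143 bases before the start in Dusp1, 166 in Btg2, 12 in Ppp1r15a, 62 in Plk2, and 107 and 63 in Dusp8, which holds 2. The CArG box of Zfp36 begins at 58 and the TATA box of Fos at 33 bases before the start. These are matches of letters and not measured binding sites. The motif shares were not computed over all immediate early genes tested. A feature of that list therefore cannot be told apart from one of the genes that rose.

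Another shared sequence feature was in the RNA itself. The nonamer TTATTTATT, the core of the AU-rich elements that mark many unstable RNAs for decay, was in the longest annotated 3′ UTR of 10 of the 29 genes (34.5%), namely Fos, Dusp1, Dusp8, Zfp36, Zfp36l1, Rgs1, Ppp1r15a, Plk2, Plk3 and Csrnp1. It was in 22.5% of all 71 immediate early genes tested and in 8.37% of the 11466 tested genes with an annotated 3′ UTR. The genes were also short, with a median span of 4812 bases from start to end, and of 5654 bases over all 71 immediate early genes tested, against 22646 bases over the 12957 tested genes with coordinates.

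The 6 marker genes of the set show its extent. Fos, whose protein pairs with Jun in AP-1, had 266 CPM in PS2APP 1, 266 in PS2APP 4, 978 in WT 9 and 3537 in WT 13. The 11 other libraries lay between 0.552 and 9.49 CPM, so that the lowest of the 4 was 28.0 times the highest of the rest. Egr1, a zinc finger factor, had 1014, 925, 1967 and 3705 CPM in the same order, against 14.9 to 56.0. Dusp1, a phosphatase of p38 and JNK kinases, had 433, 417, 1322 and 1949 CPM, against 4.78 to 14.1, and its gap between the sets was the widest of the 6 at 29.5 times. Jun had 473, 701, 1321 and 1691 CPM, against 39.5 to 70.6. Btg2, an antiproliferative factor of RNA deadenylation, had 427, 485, 1036 and 1520 CPM against 65.3 to 143, the narrowest gap of the 6 at 2.99 times. Klf2, a zinc finger factor known for restraining inflammatory genes, had 53.8, 34.7, 187 and 411 CPM, against 0.827 to 6.01. With genotype in the fit, the log2 differences were 7.98 ± 0.52 (SE) for Fos, 6.80 ± 0.34 for Dusp1, 6.07 ± 0.33 for Egr1, 5.06 ± 0.39 for Klf2, 4.13 ± 0.22 for Jun and 3.02 ± 0.21 for Btg2.

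**Figure D1:**
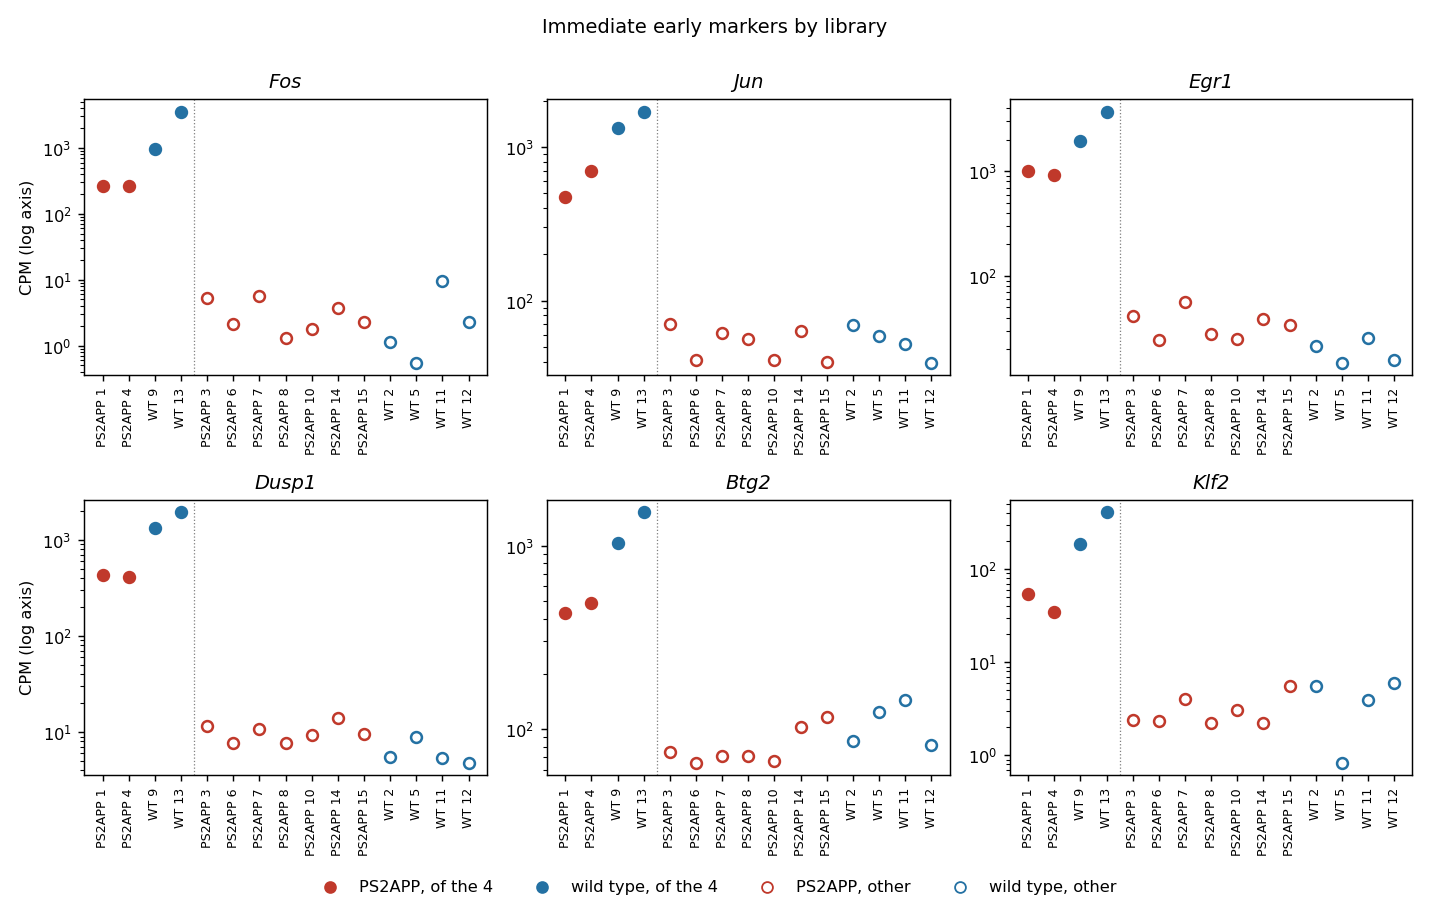
CPM on a log axis for the 6 marker genes of the 4 libraries, with 1 point per library. Points are filled for the 4 and open for the other 11, in red for PS2APP and blue for wild type. The 4 libraries lie above the 11 in each panel, and WT 9 and WT 13 lie above PS2APP 1 and PS2APP 4.

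No library lay between the sets. The mean log2 CPM of the 6 markers was 8.35 in PS2APP 4, the lowest of the 4, and 4.35 in PS2APP 7, the highest of the 11. Within the 4 it was 8.36 in PS2APP 1, 9.86 in WT 9 and 10.8 in WT 13. On the length-scaled RPKM that the authors deposited, which allows levels of different genes to be set side by side, Zfp36 had the highest mean of the immediate early genes in the 4 libraries at 332 RPKM, followed by Rhob at 254, Egr1 at 166 and Fos at 161. In the other 11 the order was another one: Rhob stood at 125 RPKM and Maf at 61.4, while Fos stood at 0.415 and Dusp1 at 1.20.

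The 4 libraries were not alike among themselves. WT 13 was the highest of the 4 for all 6 markers, and both wild type libraries exceeded both PS2APP libraries for all 6. Among the 29 immediate early genes past the fold rule, both wild type libraries exceeded both PS2APP libraries for 22, and WT 13 was the highest for 23. These counts include the 6 markers. The median ratio of wild type to PS2APP over these 29 genes was 2.57 within the 4 libraries and 1.03 within the other 11. In the genotype by set interaction (edgeR quasi-likelihood, Benjamini-Hochberg adjustment over 13994 genes), 1 gene passed, which is 0.00715% of those tested, with 1395 genes at an unadjusted p under 0.05. That gene was Dusp1, with an interaction of -2.69 ± 0.37 (log2, SE). Its own counts helped to choose the 4 libraries, so this value is given as a description and without a p. In the 11, PS2APP libraries had 7.62 to 14.1 CPM of Dusp1 and wild type libraries 4.78 to 8.83. No gene passed without PS2APP 1, PS2APP 4 or WT 13, where the library left alone in its arm is assumed to vary like the others. Without WT 9, 32 genes passed, all with a lower PS2APP to wild type ratio in the 4. For Egr1, which also helped to choose the 4 libraries, the interaction was -2.40 ± 0.43, likewise given as a description. Among immediate early genes outside the markers the interaction was -2.69 ± 0.51 for Rgs1 and -1.99 ± 0.37 for Klf6. High counts of immediate early genes chose the set, so these values too are a description. WT 9 and WT 13 were also the deepest libraries and the highest in choroid plexus and neutrophil RNA, as given below, and the part of these in the order was not tested.

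Over all genes, a fold rule was used: a log2 difference beyond 1 between the 4 and the 11, with both libraries of the 4 beyond every other library of their own genotype, in each genotype. By it 94 genes were higher in the 4 libraries (0.672% of the 13994 tested) and 22 were lower (0.157%). The rule used this contrast, so nothing is read from these shares. The higher side reached further: 52 genes were over 4-fold higher and 5 were over 4-fold lower, 30 against 1 passed 8-fold, and 13 against 0 passed 16-fold. Without the condition on overlap, 357 genes were over 2-fold higher and 493 over 2-fold lower. Of the 94 genes, 29 were in the lists of immediate early genes and 8 were histone genes. The higher genes just inside the limit were Ppp1r10 and Hspa8, each with a log2 difference of 1.01. Of the immediate early genes, Trib1 (1.18) was the lowest past the rule, while Myc (0.96) and Rhob (0.93) were beyond the other libraries of their genotype but under the limit of 1.

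**Figure D2:**
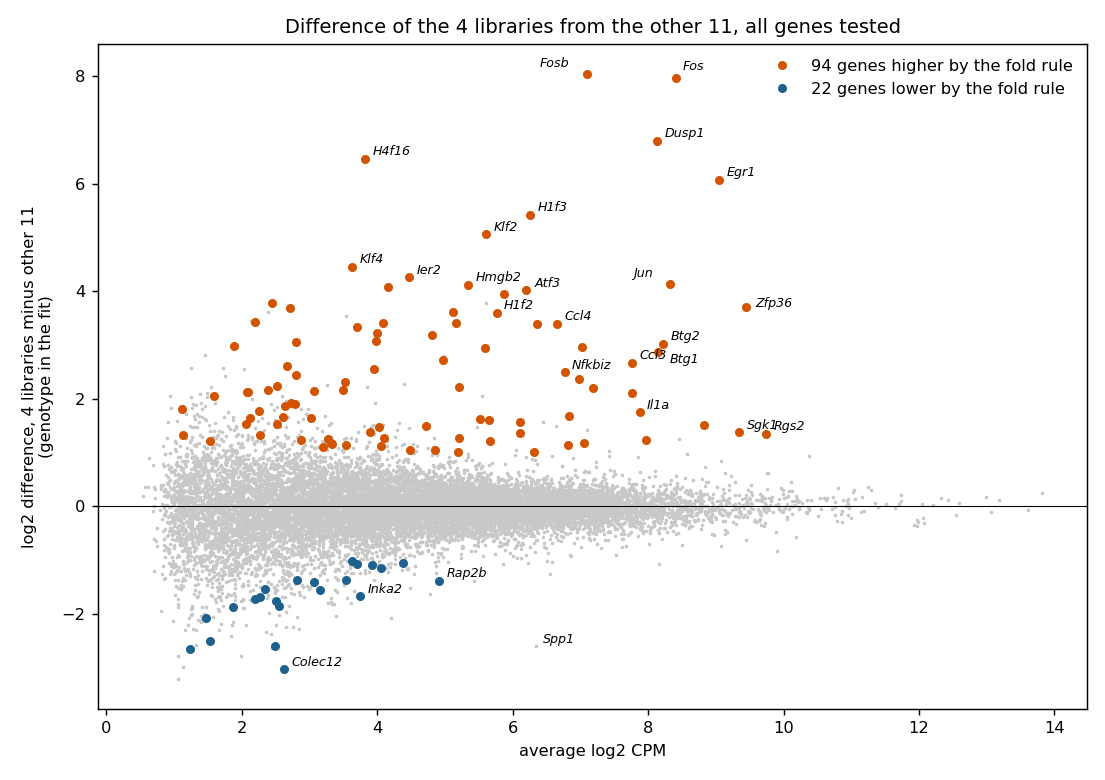
Log2 difference between the 4 libraries and the other 11 (y axis) against average log2 CPM (x axis) for the 13994 genes tested, with the 94 genes higher and 22 lower by the fold rule in colour. The higher genes reach a log2 difference of 8.04 (Fosb) and include genes of high average level, while the lower genes end at -3.03 (Colec12) and lie at low levels.

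The lists of immediate early genes hold 86 genes, of which 71 passed the filter on low counts. Of the 71, 29 were higher by the fold rule and none lower, and the median log2 difference over the 71 was 0.96, against -0.02 over all genes tested. High counts of immediate early genes, the 6 markers among them, chose the set, so the 29 and the median are no independent result. The 15 genes that did not pass the filter had between 13 and 184 reads over all 15 libraries. Among these, Dusp2 had 98 reads in the 4 libraries and 14 in the 11, Sik1 had 116 and 68, and Fosl1 had 2 and 23.

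Among the 12 AP-1 genes tested, 6 were higher by the fold rule, and they were Fos, Fosb, Jun, Junb, Jund and Atf3. Fosb had 143 CPM in PS2APP 1, 91.8 in PS2APP 4, 334 in WT 9 and 1454 in WT 13, and from 0 to 3.92 in the other 11. Its log2 difference of 8.04 ± 0.51 was the largest of all genes past the rule. Atf3, a stress-responsive partner of Jun proteins, had 113, 93.4, 134 and 597 CPM against 4.95 to 22.8. Junb, with 77.8 to 175 CPM against 6.81 to 27.7, and Jund, with 66.5 to 106 CPM against 9.07 to 25.7, were spread more evenly over the 4 libraries. Jund was highest in PS2APP 1. Maf, at -0.14, and Fosl2, at -0.42, overlapped between the sets.

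Of the 17 genes of the EGR, NR4A and KLF families and related factors, 5 were higher by the fold rule: Egr1, Egr2, Klf2, Klf4 and Klf6. Klf4 had 15.9 CPM in PS2APP 1, 15.9 in PS2APP 4, 33.9 in WT 9 and 93.9 in WT 13, and 0.206 to 3.61 in the others. Klf6 had 450, 436, 864 and 1791 CPM against 216 to 432. Egr2 had 34.3, 42.7, 37.9 and 161 CPM against 1.54 to 31.6, so that 3 of the 4 lay close to the upper end of the 11. Egr3 had a log2 difference of 3.79 ± 0.57 but did not meet the rule, since WT 9, with 40.9 CPM, lay below WT 11, with 41.0. Nr4a1, an orphan nuclear receptor, had 3.60, 11.2, 20.6 and 57.6 CPM against 0.488 to 7.0, and PS2APP 1 lay within the range of the 11. Nr4a2 and Nr4a3 overlapped between the sets, with differences of 0.80 and -0.51. The same held for Srf, the factor of the CArG box, at -0.16.

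Among 15 MAP kinase phosphatases and other feedback inhibitors, 4 were higher by the fold rule: Dusp1, Dusp8, Rgs1 and Rgs2. Rgs1, which dampens G protein signalling, had 104, 116, 307 and 433 CPM in PS2APP 1, PS2APP 4, WT 9 and WT 13, against 7.16 to 36.9 in the others. Rgs2, of the same family, had 1024, 1036, 2060 and 2354 CPM against 408 to 705. Dusp8 had 21.2, 8.74, 9.62 and 9.72 CPM against 1.74 to 8.30, and it was highest in PS2APP 1. The other phosphatases tested overlapped between the sets: Dusp10 had a log2 difference of 0.997 ± 0.77, Dusp6, which acts on ERK, of 0.46, Dusp16 of 0.23 and Dusp7 of 0.03. Dusp10 had 1.48, 6.30, 5.25 and 12.2 CPM against 0.412 to 13.7. The Sprouty-related inhibitors Spred1 and Spred2 had differences of -0.21 and -0.22, and Arc, a gene of active neurons, had between 0 and 2.62 CPM in the 4 libraries.

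Of 27 other immediate early genes, 14 were higher by the fold rule. Zfp36, which binds AU-rich elements and leads RNAs to decay, had 1386, 1509, 2506 and 3369 CPM against 115 to 224, a log2 difference of 3.71 ± 0.18. Its relative Zfp36l1 had 314 to 545 CPM against 145 to 210. Ier2 had 30.3, 44.6, 104 and 109 CPM against 1.54 to 5.95, and Ier3 had 25.4, 21.6, 65.5 and 109 CPM against 1.24 to 7.19. Btg1, a relative of Btg2, had 505, 450, 682 and 1514 CPM against 59.1 to 127. Ppp1r15a, a subunit that directs a phosphatase to eIF2 alpha, had 36.4, 17.8, 62.9 and 61.9 CPM against 2.47 to 14.9. Per1, a clock gene that is also an immediate early gene, had 77.3, 61.2, 81.7 and 140 CPM against 14.8 to 41.6, and it was the sole one of the 19 clock genes tested past the rule, with a list median of 0.01. Rhob, a small GTPase, had 1804, 1415, 2279 and 2967 CPM against 684 to 1549, so that PS2APP 4 lay below WT 5.

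Genes of inflammatory signalling are often transcribed with immediate early genes, and a minority of them passed the rule. Of 20 genes of NF-kB feedback, 2 were higher by the fold rule, with a list median of 0.52. Socs3, an inhibitor of cytokine receptors, had 44.3, 46.4, 106 and 127 CPM against 5.52 to 11.2. Nfkbiz, a nuclear IkB protein, had 120, 117, 144 and 685 CPM against 23.6 to 91.5. Tnfaip3, the A20 deubiquitinase, had 108, 117, 215 and 638 CPM against 62.2 to 118, so that the PS2APP libraries of the 4 lay within the range of the others. The subunit genes Nfkb1 and Rel had differences of -0.03 and 0.32.

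Of 24 cytokine and chemokine genes, 6 were higher by the fold rule: Ccl2, Ccl3, Ccl4, Ccl7, Tnf and Il1a. Ccl2, a monocyte attractant, had 114, 39.0, 75.7 and 169 CPM against 1.23 to 27.8. Ccl4 had 142, 156, 218 and 606 CPM against 5.24 to 81.8, and Ccl3, of the same cluster, had 324, 373, 280 and 859 CPM against 18.5 to 286. For Ccl3 the sets overlapped across genotypes, since WT 9 lay below the highest of the other PS2APP libraries. Tnf had 32.2, 12.2, 44.9 and 70.3 CPM against 2.06 to 13.5, and Il1a had 351, 239, 536 and 927 CPM against 79.6 to 185. Il1b (1.23) and Osm (1.15) overlapped, and the median of the list was 0.25. Cxcl10, Ccl5 and Cxcl16 had differences of 0.43, -0.09 and -0.05 and overlapped.

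A group outside the immediate early lists was the histones. Its 14 genes were put together after their values were seen. All 14 had a positive difference, 8 were higher by the fold rule, and the median was 2.23. The linker histone H1f3 had 152, 202, 300 and 409 CPM in PS2APP 1, PS2APP 4, WT 9 and WT 13, and 1.46 to 23.8 in the others. H1f2 had 86.6, 130, 261 and 177 CPM against 5.30 to 24.7, and the core histone gene H4f16 had 23.5, 20.1, 66.7 and 86.6 CPM against 0 to 2.24. Histone genes are short and near-identical in part, so reads that align to a single gene may split them unevenly. Of the 19 cell cycle genes tested none passed the rule, and their median was 0.01. Hmgb2, a chromatin protein, had 36.8, 33.2, 52.1 and 394 CPM against 2.28 to 14.5, most of it in WT 13.

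Other stress programs differed less. Of 24 heat shock genes, Hsp90aa1 (16.1, 10.2, 14.6 and 34.2 CPM against 0.925 to 7.63) and Hspa8 (48.1, 47.7, 78.2 and 61.0 CPM against 18.3 to 46.0) were higher by the rule. Hspa1a, the inducible Hsp70 gene, did not pass the filter on low counts, with 223 reads in the 4 libraries and 17 in the 11. It has a near-identical copy, Hspa1b (15 and 5 reads), so uniquely aligned reads may understate both. Of 19 glucocorticoid-responsive genes, the 3 past the rule were Dusp1, Per1 and Sgk1, which are also immediate early genes. Sgk1, a kinase, had 649, 634, 1337 and 2496 CPM against 314 to 622. Fkbp5, a classical glucocorticoid target, had a difference of -0.08, and Tsc22d3, another, had 1.27 with overlap. The genes of the ATF4 and unfolded protein response (23 tested), glycolysis and hypoxia (24), oxidative phosphorylation (33) and cytosolic ribosomal proteins (40) had no member past the rule, and medians of 0.06, -0.08, -0.01 and 0.07. Neat1, a nuclear RNA, was the sole one of 23 splicing and nuclear transcripts past the rule, with 105, 109, 85.4 and 199 CPM against 7.72 to 87.2. The median of that list was below 0 in PS2APP 1 (-0.31) and PS2APP 4 (-0.37) and above 0 in WT 9 (0.51) and WT 13 (0.88).

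**Figure D3:**
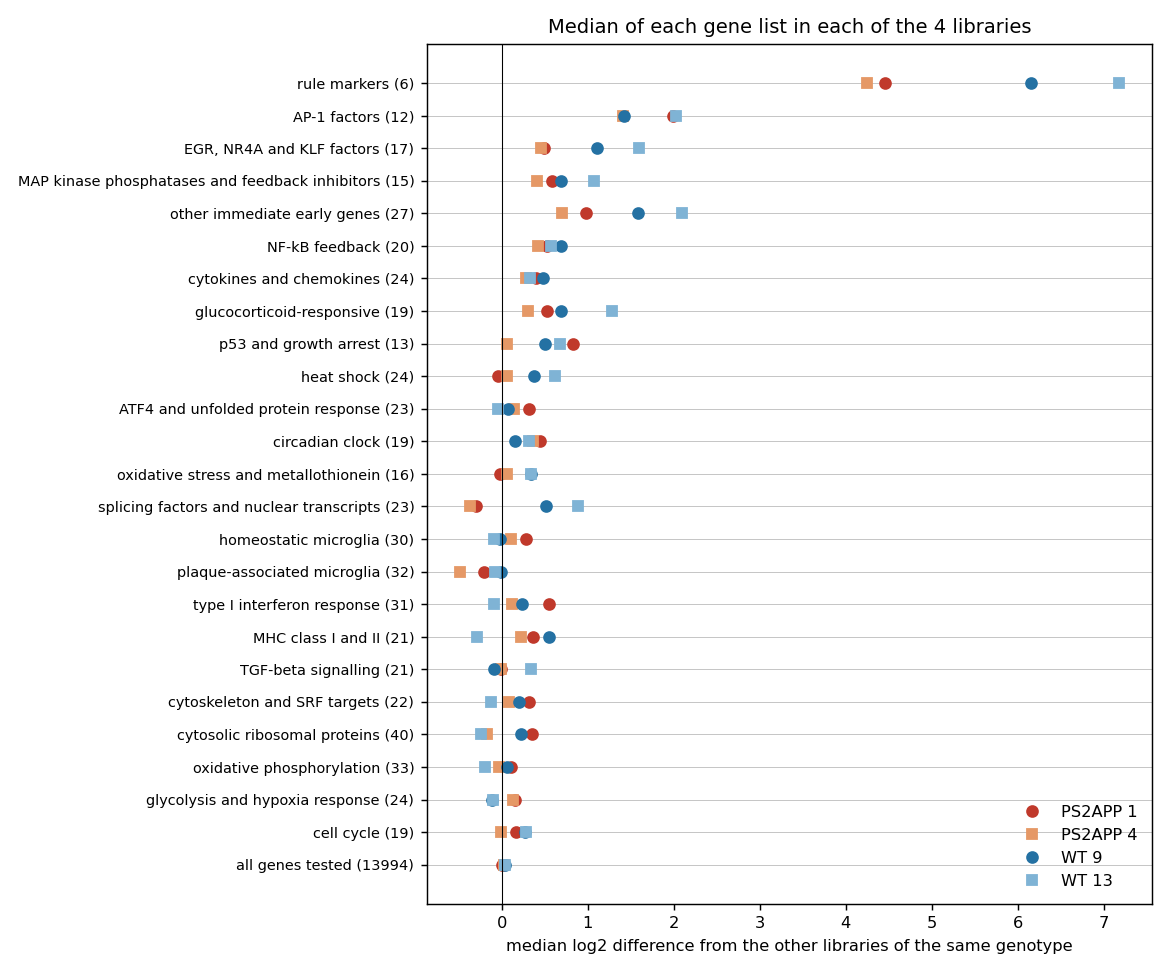
Median log2 difference of each gene list in each of the 4 libraries from the mean of the other libraries of the same genotype, with the number of genes tested in brackets. The immediate early lists lie right of 0 in all 4 libraries, the median of all genes lies between 0.01 and 0.03, and most other lists lie within about 1 of 0.

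The 22 lower genes were of low level and shared no list: none was a member of any list, and 8 had no symbol in the RefSeq table. The largest difference was that of Colec12, a scavenger receptor, with 1.48, 1.58, 0.25 and 0.131 CPM against 1.08 to 20.6, a log2 difference of -3.03 ± 0.66. Inka2, an inhibitor of PAK4, had 4.66, 6.02, 2.62 and 5.39 CPM against 7.07 to 30.9. Rap2b, a small GTPase, had 2.37 to 19.9 CPM against 18.1 to 78.8.

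Programs of microglial identity and of the response to amyloid showed another pattern. Of 30 homeostatic genes none passed the fold rule, and the median was 0.09. Of 31 interferon genes and of 21 MHC genes none passed, with medians of 0.12 and 0.13. Of 32 plaque-associated genes, the 2 past the rule were Ccl3 and Ccl4, and 24 of the 32 had a negative difference, with a median of -0.34. Against the other libraries of its genotype, each library had its own median. It was -0.21 in PS2APP 1, -0.49 in PS2APP 4, -0.01 in WT 9 and -0.08 in WT 13. Spp1, osteopontin, had 21.2 CPM in PS2APP 1 and 40.4 in PS2APP 4, below the 80.4 to 341 of the other PS2APP libraries. WT 9 had 1.12 and WT 13 had 3.02 CPM, within the 1.08 to 43.7 of the other wild type libraries, and the log2 difference was -2.60 ± 0.57.

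RNA of other cells moved with some of the 4 libraries. The 3 choroid plexus markers tested of 11 summed to 418 CPM in WT 9, 115 in WT 13, 29.4 in PS2APP 1 and 15.8 in PS2APP 4, against 9.60 to 65.8 in the others. Ttr, transthyretin, the most abundant choroid plexus transcript, had 298 CPM in WT 9 and 62.1 in WT 13. The 8 oligodendrocyte markers tested of 11 summed to 773 CPM in WT 9 and to 236 to 303 in the other 3, against 122 to 318. The 10 astrocyte markers tested of 11 summed to 879 CPM in WT 9 and 1105 in WT 13 and to 524 and 549 in the PS2APP libraries, against 331 to 726. The 12 neuron markers tested of 15 summed to 315 to 652 CPM against 78.1 to 489. Singly, 5 of them had a positive and 7 a negative difference, with a median of -0.11. Camk2a, the sole one of them past the fold rule, had 163, 153, 292 and 154 CPM against 46.1 to 125. The astrocyte marker past the rule was S100b (16.3, 7.16, 14.7 and 7.10 CPM). Border-associated macrophage markers (9 of 10 tested) all had a negative difference (median -0.62) and summed to 39.2 to 187 CPM against 70.2 to 258. WT 9 went the other way, with a median of 0.72 against the other wild type libraries. The medians were -1.64 in PS2APP 1, -0.70 in PS2APP 4 and -2.03 in WT 13. No neutrophil and no T or NK cell marker passed the filter on low counts, but their reads were not spread evenly. The 10 neutrophil markers summed to 92.8 CPM in WT 13 and 37.1 in WT 9, to 0.143 in PS2APP 4 and to 0 in PS2APP 1, against 0 to 35.9 in the others, where WT 11 was highest. Of them 9 took a larger share of the reads in the 4 libraries than in the 11, among them S100a8 with 298 and 103 reads, S100a9 with 244 and 74, and Ngp with 171 and 36. The 10 T or NK cell markers summed to 11.4 CPM in WT 9, 8.02 in WT 13, 2.15 in PS2APP 4 and 0 in PS2APP 1, against 0 to 9.17. A larger share of the reads in the 4 was seen for 8 of them, among them Cd3e with 36 and 3 reads. Klrb1c went the other way with 4 and 32, and Ncr1 had 0 in all libraries. The 4 libraries hold 32.5% of all reads. With a choroid plexus score in the fit 108 genes were past the fold rule, 106 of them among the 116, and with a neuron score 115 were. The part of these cells in the remaining differences was not tested, and fewer cells of a type cannot be told apart from less RNA per cell in sorted bulk samples.

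The genotype effect was tested beside a term for the 4 libraries. By edgeR's quasi-likelihood test 182 genes were called: 140 higher in PS2APP (1.0% of those tested) and 42 lower (0.300%). Of the 71 immediate early genes 1 was called, Plaur, the urokinase receptor (log2 1.22, adjusted p = 0.0394), which was not past the fold rule. None of the 29 genes past the rule was called. High counts of immediate early genes chose the set that this fit uses, so nothing is read from this. Of the 32 plaque-associated genes 17 rose in PS2APP, with a median over all 32 of 1.14, among them Cst7, a cystatin (5.55 ± 0.29, adjusted p = 1.41e-11). Of 31 interferon genes 9 rose with a median of 1.23, and of 21 MHC genes 6 rose with a median of 0.62. Side by side, the immediate early lists had a median of 0.96 for the 4 libraries and -0.21 for genotype, and the plaque-associated list had -0.34 and 1.14. The -0.34 pools libraries whose own medians ran from -0.49 in PS2APP 4 to -0.01 in WT 9.

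The count of genotype calls was similar with and without the term for the 4 libraries, at 182 and 176 genes, with 164 called in both. With the 4 libraries left out 230 were called, and 124 were shared, which is 68.1% of the 182 and 53.9% of the 230. With age added to that fit 142 were called, 91 of them among the 182. Single immediate early genes moved more. Without the term, Fos had a genotype log2 fold change of -3.61, Dusp1 of -2.42, Egr1 of -1.98 and Jun of -1.65, none called (adjusted p from 0.269 to 0.485). With the term they were -1.35, -0.19, 0.13 and -0.43, and with the 4 libraries left out -0.10, 0.73, 0.86 and -0.05. None was called in any of these fits. The counts of these genes helped to choose the 4 libraries, so a fit that uses or leaves out that set is no test of them.

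**Figure D4:**
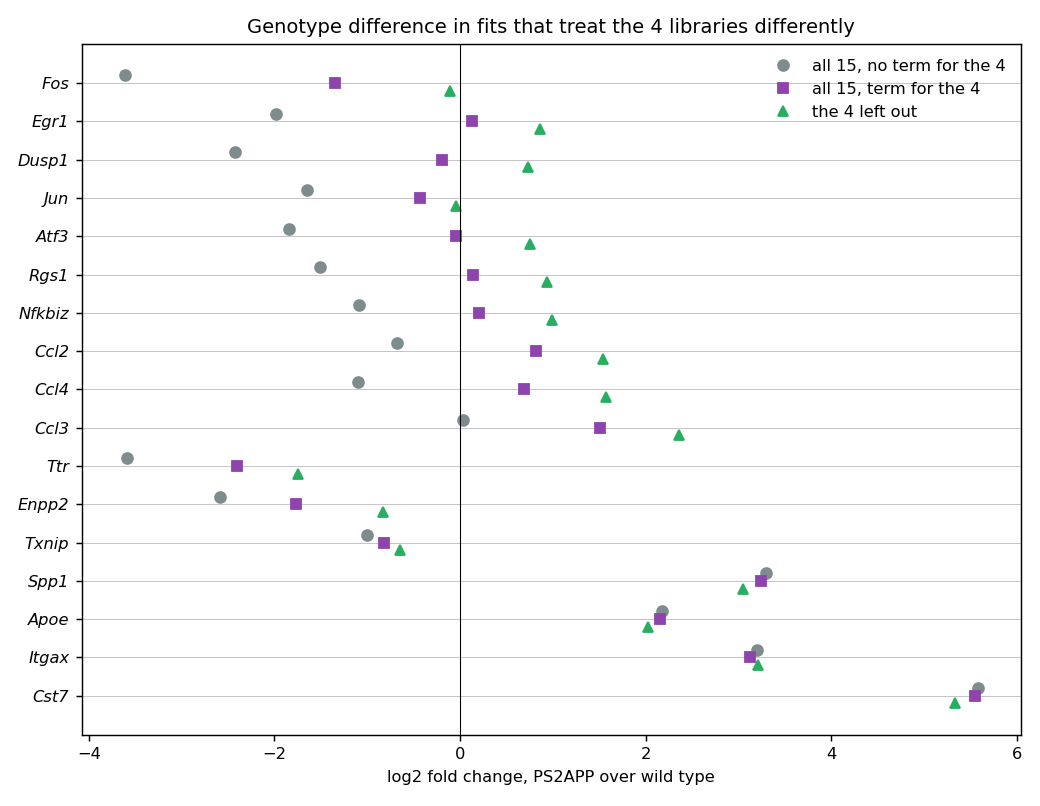
Genotype log2 fold change (PS2APP over wild type) of named genes in all 15 libraries with no term for the 4 (circles), with a term for the 4 (squares) and with the 4 left out (triangles). The immediate early and chemokine genes shift to the right from circle to triangle, while Spp1, Apoe, Itgax and Cst7 differ little between the fits.

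The chemokine genes Ccl3 and Ccl4 moved likewise. Among the 11 other libraries, Ccl3 had 118 to 286 CPM in the 7 PS2APP libraries (median 191) and 18.5 to 54.2 CPM in the 4 wild type libraries, so the genotypes did not overlap. With the 4 libraries left out, Ccl3 rose in PS2APP by 2.36 ± 0.30 (log2, adjusted p = 0.000268). It was not called with the term for the 4 (1.51 ± 0.45, adjusted p = 0.112) and had a fold change of 0.04 with no term (adjusted p = 0.989). Ccl4 rose by 1.57 ± 0.37 with the 4 left out (adjusted p = 0.0391), and had 0.69 with the term (adjusted p = 0.597) and -1.10 without it (adjusted p = 0.547). With age added to the fit without the 4, Ccl4 was not called (1.63 ± 0.40, adjusted p = 0.0606), while Ccl3 was (2.29 ± 0.32, adjusted p = 0.000901). Ccl2 was not called in that fit by the same quasi-likelihood test (1.54 ± 0.50, adjusted p = 0.155). Egr2 was higher in PS2APP by 2.25 ± 0.45 (log2) with the 4 left out and by 1.18 with the term. Among the 11, the 7 PS2APP libraries had 13.7 to 31.6 CPM of Egr2 and the 4 wild type libraries 1.54 to 10.8. Egr2 is an immediate early gene, and high counts of such genes chose the 4 libraries. Its values are therefore a description, and these fits are no test of it. The interaction, which tests whether the genotype effect differed between the sets, did not pass for Ccl3 (-3.07 ± 0.58, adjusted p = 0.0758) or Ccl4 (-3.03 ± 0.64, adjusted p = 0.119).

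**Figure D5:**
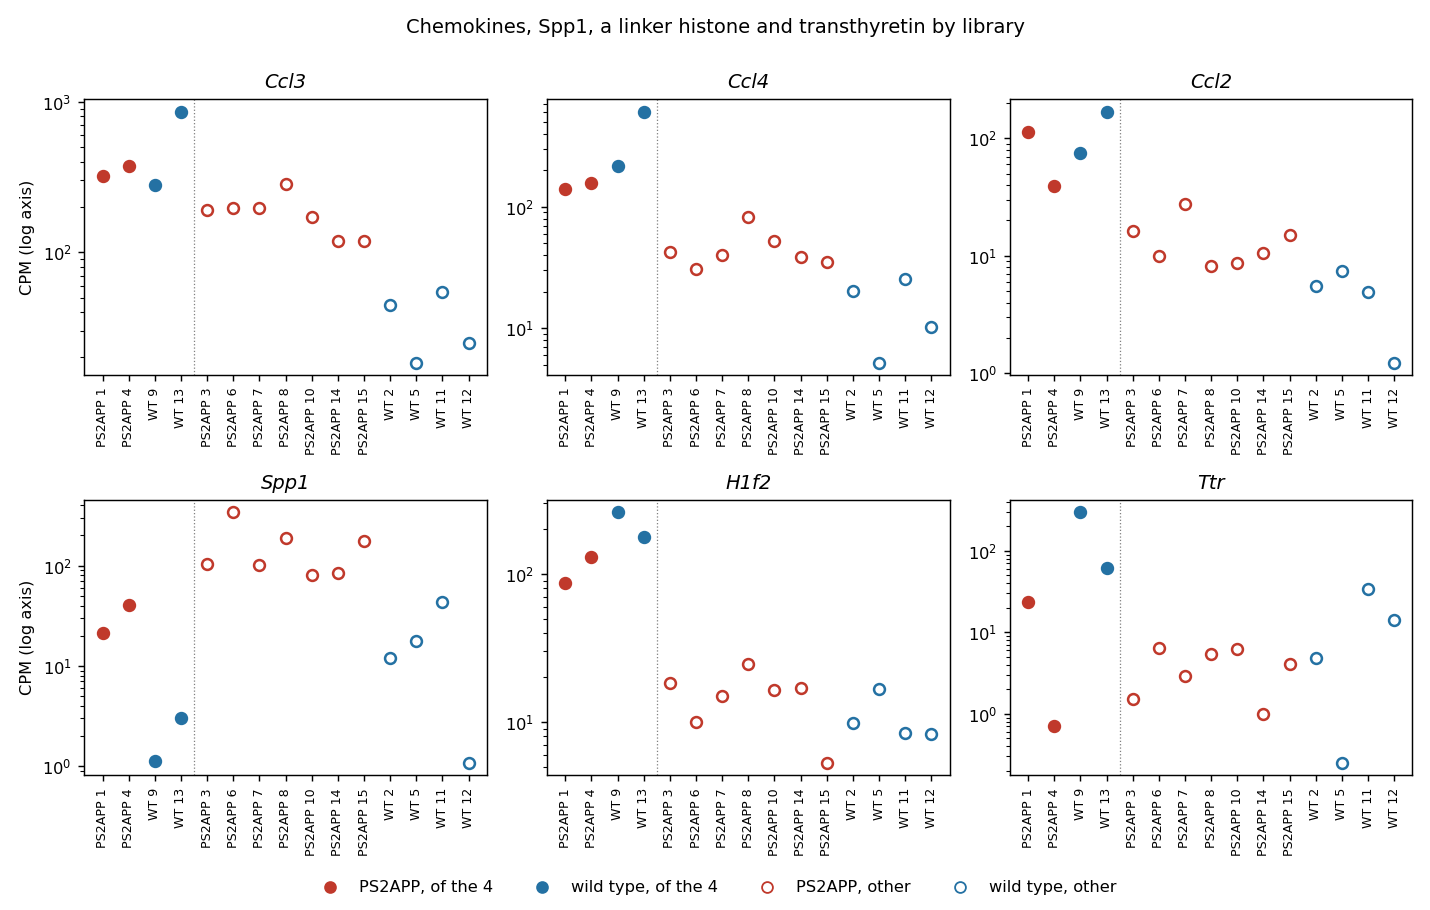
CPM on a log axis by library for 3 chemokines, Spp1, the linker histone H1f2 and Ttr, with symbols as in the plot of the marker genes; the 1 library without a Ttr read (WT 5) is drawn at the bottom of its panel. Ccl3 separates the genotypes among the open symbols but not among the filled ones, and Ttr is highest in WT 9.

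Some genotype calls depended on the term. Colec12 was called higher in PS2APP with it (2.26 ± 0.54, adjusted p = 0.0318) and not without it (2.38, adjusted p = 0.122). Nfkbid, a nuclear IkB protein, was called lower (-1.21 ± 0.30, adjusted p = 0.0381) and not without it (adjusted p = 0.127), nor with the 4 left out (-1.34, adjusted p = 0.0668). Camk2a, a neuronal kinase, was called lower with the term (-0.77 ± 0.18, adjusted p = 0.0246) and with the 4 left out (adjusted p = 0.0307, and 0.0530 with age added), but not without the term (adjusted p = 0.161). Enpp2, a choroid plexus marker, was called lower in the fit without the term and in neither of the other fits (-2.59, adjusted p = 0.0215, against 0.181 with it and 0.522 with the 4 left out), and Ttr likewise (-3.59, adjusted p = 0.0271, against 0.0967 and 0.248). Enpp2 had 100 CPM in WT 9 and 40.1 in WT 13, against 1.10 to 20.0 in the 11.

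Within the 11 other libraries the markers varied little, from 3.35 to 4.35 in their mean log2 CPM. No gene was called for a slope on this mean with genotype in the fit (0% of 14189 tested, edgeR quasi-likelihood), with 942 genes at an unadjusted p under 0.05. DESeq2 called 6 genes and limma-voom none. In simulated counts this test found 0% of genes with a 2-fold and 9% of genes with a 4-fold slope, so most slopes of these sizes would not have been called.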

How the data were processed

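Gene counts of 15 RNA-seq libraries of sorted cortical microglia (9 PS2APP, 6 wild type) were used. Per the file headers, the deposited count is the number of reads aligned uniquely to each gene model, and the deposited RPKM is adjusted by size factor by the authors. GSNAP and GRCm38 are named per the submitters' processing notes, while for the annotation, the aligner version, the kit and the strand setting nothing is stated in the sources used here. Of 36528 gene IDs, 31049 matched the RefSeq table, and total counts were 3664742 to 8455237 per library (median 5867848).

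Counts were fitted with edgeR 4.0.16 (quasi-likelihood, TMM, filterByExpr on genotype, prior count 2, two-sided, Benjamini-Hochberg adjusted p under 0.05) in R 4.3.3, over 13994 genes, with terms for genotype and for the 4 libraries. Differences of the 4 libraries are coefficients with their SE and carry no p. Other fits added the interaction, left out the 4 libraries, or tested a slope on the mean log2 CPM of the 6 markers in the 11. RPKM served to set levels of different genes side by side and, as log2(RPKM + 1), in 1 alternative. DESeq2 1.42.0 and limma 3.58.1 were alternatives. No 2 libraries of a group agreed within sampling noise (chi-square per degree of freedom from 9.98 to 67.5 over 51 pairs). In simulated counts, 41% of 2-fold and 87% of 4-fold genotype changes were recovered among 13740 genes, and 3% and 33% of interactions among 13760. The fold rule recovered 29% of 2-fold and 82% of 4-fold differences of the 4 libraries among 13730 genes. There, 11 genes simulated without a difference also passed it, which was 9.02% of those passing.

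The members and gene lists were chosen with earlier results of these data known. The genes named are the markers, the list members past the fold rule or near it, and the genes leading each test, and others were named after their values were seen. Promoter windows are RefSeq's (GRCm38.p6).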

Additional observations from a re-analysis of the deposited data

Results flagged for a closer look

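Of 44 groups of 4 to 10 libraries examined for a library far from the rest, 3 had one, and chance gives about 5% of such groups. Among the 6 wild type libraries, Fos stood at 3537 CPM in WT 13, with the next at 978 CPM in WT 9, but Fos is one of the genes that chose these libraries, so this is no independent sign. Oligodendrocyte markers summed to 773 CPM in WT 9, with the next wild type library at 318. Choroid plexus markers summed to 418 CPM in WT 9, with the next at 115 CPM in WT 13. Dusp1 had a genotype by set interaction of -2.69 on the log2 scale. It too is one of the genes that chose the libraries, and no gene passed without PS2APP 1, PS2APP 4 or WT 13. The causes were not tested.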

How the results depend on the processing

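The 116 genes past the fold rule became 997 with 14-month and 741 with 15-month libraries alone, 237 with PS2APP and 501 with wild type libraries alone, where fewer libraries have to be passed, 266 without the 3 libraries low in Xist, and 63 with limma on log2(RPKM + 1). Leaving out 1 library gave 123 to 241, with 241 without PS2APP 4 and 198 without WT 13. The 182 genotype calls became 436 with DESeq2 and 609 with no filter on low counts, and 131 (without PS2APP 6) to 243 (without WT 13) with 1 library left out. The single interaction call became 74 with DESeq2, 8 with limma-voom and 117 with no filter, and 0 to 32 with 1 library left out (11 without PS2APP 8, 7 without WT 11). The absence of slope calls became 2 with age added, 1 with a filter of 1 CPM, 6 with DESeq2, 22 with no filter, 3 without the 2 libraries low in Xist, and 0 to 7 with 1 library left out (7 without WT 11, 4 without WT 12 or WT 2). The causes were not tested. The fits without the libraries low in Xist, on RPKM, with a choroid plexus score, and with the 4 left out and age added were chosen after seeing the data. Of 38 list medians for the 4 libraries, 21 changed sign over 30 alternatives, among them cytosolic ribosomal proteins (-0.28 to 0.32), interferon (-0.21 to 0.28), ATF4 and unfolded protein response (-0.15 to 0.21), MHC (-0.03 to 0.29), splicing (-0.42 to 0.67) and choroid plexus (-0.63 to 2.42), and the clock list did so with scaling alone. The immediate early lists together (0.53 to 1.17), the histones (1.18 to 2.41) and the plaque-associated list (-0.47 to -0.14) kept theirs. No paired analysis was possible because the sample numbers are not shared between the groups.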
